A study of Mus musculus with 12 samples.

Results

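The SR splicing factors are a family of RNA-binding proteins, and the transcripts of 10 of their genes, Srsf1 to Srsf7 and Srsf9 to Srsf11, were followed in immortalized mouse embryonic fibroblasts in which the methyl cycle was disturbed. The genes were chosen by name from a table of 12591 genes, and all 10 were present in it. Srsf12 and Srsf19 were not listed in the table, which holds only genes that reached 1 CPM (a count per library scaled to the same total) in every library, and were not analysed here. The fibroblasts came from heterozygous PER2::LUC knock-in mice (strain C57 PER2::LUC), whose clock protein PER2 carries a luciferase tag, so the controls carried the knock-in too. Confluent dishes of this single immortalized line were treated for 24 h in 4 groups of 3 dishes: controls (CTL), 10 µM deazaneplanocin A (DZ, an inhibitor of the enzyme AHCY), 1 mM adenine, and 1 mM S-adenosylmethionine (SAM, the methyl donor of the cell). All 4 groups, CTL included, also received 3.3 mM HCl. The study compared each treatment with CTL, and adenine and SAM could be compared at the same dose.

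SR proteins bind short sequences in exons through RNA recognition motifs and recruit the spliceosome through a tail rich in arginine and serine. Kinases of the SRPK and CLK families phosphorylate that tail, which controls their import into the nucleus and their release from nuclear speckles. Many SR genes regulate their own transcripts through exons that carry a premature stop codon, and transcripts with such an exon are removed by nonsense-mediated decay (NMD), the pathway that degrades mRNAs with premature stops. In the GENCODE vM39 annotation, 55 of the 97 transcripts of Srsf5, 35 of 54 of Srsf7, 30 of 47 of Srsf10, 29 of 35 of Srsf9 and 27 of 34 of Srsf4 were marked as NMD targets, against 3 of 12 for Srsf1 and 5 of 11 for Srsf6. The values below are per gene and therefore pool productive and NMD transcripts.

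Each value is log2 CPM with the authors' scaling of the libraries. The reads on listed genes numbered 45649534 to 56789090 per library, and the member with the fewest reads, Srsf9, had 2373 to 3868 in the 12 libraries. SAM replicate 3 stood apart from the other SAM dishes, at a chi-square per degree of freedom over the genes of 19.1 and 15.7 against SAM replicates 1 and 2, whereas other replicate pairs gave 4.76 to 7.07. The labels do not say whether dishes were prepared on separate days, so p-values measure the spread between dishes. Of 10 fibroblast markers, 9 were listed (not Dcn), as were 0 of 5 epithelial, 0 of 4 endothelial and 1 of 5 leukocyte markers, the last being Cd68 at 3.46, 3.21, 11.5 and 16.8 CPM in CTL, DZ, adenine and SAM. In bulk RNA, fewer cells of a type and less RNA per cell cannot be told apart.

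The levels of the 10 genes were first compared with each other in CTL, as CPM per kilobase of the canonical transcript. Srsf5 had the highest level, 160 CPM per kilobase, and Srsf3 and Srsf2 followed with 85.7 and 84.0. The ranges of Srsf3 (83.5 to 87.9) and Srsf2 (80.7 to 86.7) overlapped, so their order is not resolved. Below them came Srsf11 at 78.7, Srsf7 at 71.9, Srsf1 at 59.5, Srsf10 at 52.0, Srsf9 at 46.1, Srsf6 at 39.8 and Srsf4 at 26.5 CPM per kilobase, with no overlap between neighbours over the 3 dishes. This order depends on the length used. With all annotated exons merged, Srsf2 came first at 58.1 CPM per kilobase. Srsf5, at 53.6, was behind Srsf1, at 55.9, and Srsf9 came last at 5.37. The treatments changed the order on the canonical length as well. In SAM, Srsf4 rose above Srsf10, with 39.7 against 37.5 CPM per kilobase, whereas in CTL the level of Srsf10 was the higher. With merged exons there was no such crossing, as Srsf10 stayed above Srsf4 in SAM, at 13.7 against 9.62 CPM per kilobase. In DZ, Srsf3 was in the fourth place with 64.2 CPM per kilobase, below Srsf2 at 80.4 and Srsf11 at 67.9. In CTL it lay above Srsf11, and its order with Srsf2 was not resolved. With merged exons Srsf3 was also above Srsf11 in CTL, at 30.4 against 28.2, and below it in DZ, at 22.7 against 24.3.

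**Figure D1:**
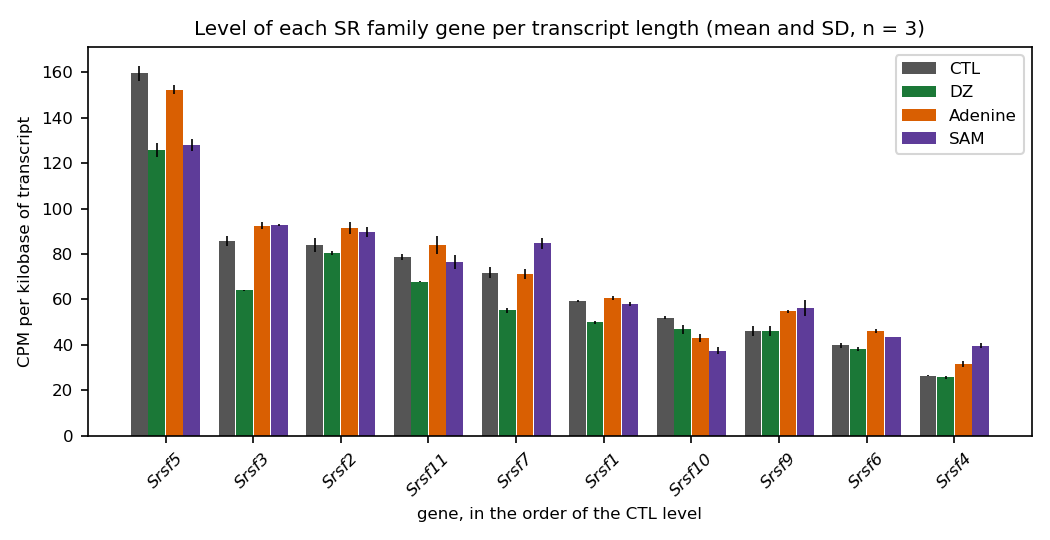
Level of each SR family gene in CPM per kilobase of canonical transcript (y axis, bars give the mean and whiskers the SD of 3 dishes), with genes on the x axis in the order of their CTL level. Srsf5 is the highest in all 4 groups, from 126 in DZ to 160 in CTL, and Srsf4 is the lowest in CTL, DZ and adenine.

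Summed over the 10 genes, the SR family took 1948 to 1982 CPM in CTL, 1665 to 1692 CPM in DZ, 2017 to 2079 CPM in adenine and 1958 to 1995 CPM in SAM. The 3 DZ dishes all lay below the CTL dishes, and their mean of 1683 ± 14.9 CPM (SD, n = 3) had decreased by 14.5% from the CTL mean of 1968 ± 17.7 CPM. The 3 adenine dishes all lay above CTL, with a mean of 2038 ± 35.9 CPM and a difference of 3.53%. SAM overlapped CTL, with a mean of 1976 ± 18.2 CPM. The order of CTL, adenine and SAM depends on the scaling. With plain read totals the difference from CTL was 8.07% for adenine, 9.26% for SAM and -13.01% for DZ. With median centring the adenine dishes (1982 to 2053 CPM) overlapped CTL (1983 to 2032 CPM), and the SAM dishes (1940 to 1981 CPM) lay below CTL. The DZ dishes lay below CTL with each scaling. No test was made on this sum.

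The composition of the family in SAM differed from that in CTL. The share of Srsf5 in the reads per kilobase of the family was 22.4 to 23.1% in the CTL dishes and 17.7 to 18.4% in the SAM dishes, while it was 20.7 to 21.4% in DZ and 20.8 to 21.1% in adenine. Srsf4, at 3.74 to 3.80% in CTL, reached 5.46 to 5.76% in SAM. Srsf10 went from 7.24 to 7.48% in CTL to 5.09 to 5.43% in SAM, and Srsf7 from 9.92 to 10.5% to 11.8 to 12.3%. In these 4 genes the SAM dishes did not overlap the CTL dishes, and the same held for Srsf1, Srsf2, Srsf3, Srsf6 and Srsf9. Only Srsf11 overlapped. Changed shares were not particular to SAM. In DZ the dishes lay apart from CTL in every gene but Srsf10 and Srsf11. In adenine they did so in every gene but Srsf1, Srsf7 and Srsf11. The shares in a library add up to the whole, so a share can move when only other members change. In DZ the share of Srsf2 was 13.2 to 13.6%, against 11.4 to 12.3% in CTL, while its level was not called. Srsf10 and Srsf11 were called lower in DZ although their shares overlapped CTL. Such shares were not computed for genes outside the family.

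DZ lowered several of the SR genes and raised none past the test. Of the 10 genes, 6 were called lower and 0 higher at an adjusted p below 0.01, in a table where 45.9% of all genes were called, 22.6% higher and 23.4% lower. The DZ and CTL dishes did not overlap in 8 of the 10, as in 65.4% of all genes. In this and the later comparisons, p-values are from limma with Benjamini-Hochberg adjustment over all 12591 genes. The median log2 fold change of the 10 genes was -0.18, against -0.0057 for all genes. Those called lower were Srsf3, Srsf7, Srsf5, Srsf1, Srsf11 and Srsf10, and the others (Srsf2, Srsf4, Srsf6 and Srsf9) had log2 fold changes between -0.063 and 0.0046.

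Srsf3 and Srsf7 are related proteins that also act as adaptors for mRNA export, and both had their lowest values in DZ. Srsf3 measured 7.92, 7.96 and 7.99 in CTL and 7.54 in each of the 3 DZ dishes on the log2 scale. The groups were separated by more than their spread, and the log2 fold change was -0.42 ± 0.026 (SE), so that the level fell by 25.1% (adjusted p = 5.25e-09). For Srsf7 the CTL dishes gave 7.43, 7.51 and 7.42 and the DZ dishes 7.11, 7.05 and 7.05, where the level fell by 23.2% at a log2 fold change of -0.38 ± 0.034 (adjusted p = 1.98e-07). Reads of Srsf3 can be shared with its processed pseudogenes Srsf3-ps (98.3% identity over 1298 bases) and Gm9761 (99.6% over 492 bases), which had log2 fold changes of -0.41 and -0.36 in DZ. The antisense lncRNA Trp53cor1 also overlaps Srsf3, and whether the counting used strand was not given in the sources used here. Trp53cor1 had a log2 fold change of -0.73 in DZ. It held 5.52 CPM in CTL and 3.28 in DZ, against 249 and 186 for Srsf3.

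Srsf1, the founding member of the family, and Srsf9, a near relative with a short arginine-serine tail, had different calls in DZ, though the difference between them was not tested. Srsf1 stood at 8.32, 8.34 and 8.34 in CTL and at 8.10, 8.10 and 8.07 in DZ. The dishes were separated, with a log2 fold change of -0.25 ± 0.025, and the level fell by 15.8% (adjusted p = 7.07e-07). Srsf9 was 5.75, 5.69 and 5.82 in CTL and 5.71, 5.83 and 5.74 in DZ, so that the dishes overlapped (95% interval of the log2 fold change -0.10 to 0.11, adjusted p = 0.943). Within each library the log2 ratio of Srsf9 to Srsf1 reads, which does not depend on scaling, was -2.66 to -2.52 in CTL and -2.39 to -2.27 in DZ.

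Srsf4, Srsf5 and Srsf6 share a pair of RNA recognition motifs, and of these Srsf5 fell in DZ. Its values were 8.21, 8.27 and 8.22 in CTL and 7.93, 7.88 and 7.86 in DZ. Every DZ dish lay under every CTL dish, and the log2 fold change was -0.34 ± 0.028 (adjusted p = 9.64e-08). Srsf4 and Srsf6 had log2 fold changes of -0.042 (95% interval -0.12 to 0.039) and -0.059 (95% interval -0.12 to 0.00070), neither past the test.

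Srsf2, Srsf10 and Srsf11 differed in DZ as well. Srsf2, also known as SC35 and used as a marker of nuclear speckles, was 7.72, 7.65 and 7.75 in CTL and 7.63, 7.65 and 7.66 in DZ, with overlapping dishes and an adjusted p of 0.110. Srsf11, which binds the splicing factor U2AF, went from 7.94, 7.98 and 7.93 to 7.75, 7.73 and 7.73, a log2 fold change of -0.21 ± 0.036 (adjusted p = 1.36e-04). Srsf10, a splicing repressor when dephosphorylated, fell from 7.32, 7.29 and 7.33 to 7.10, 7.22 and 7.16, a log2 fold change of -0.15 ± 0.039 (adjusted p = 0.00387). The call of Srsf10 was lost when CTL replicate 1 or 3 or DZ replicate 1 or 3 was left out, with the log2 fold change then between -0.15 and -0.12, with plain read totals (-0.13) and without a variance trend.

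**Figure D2:**
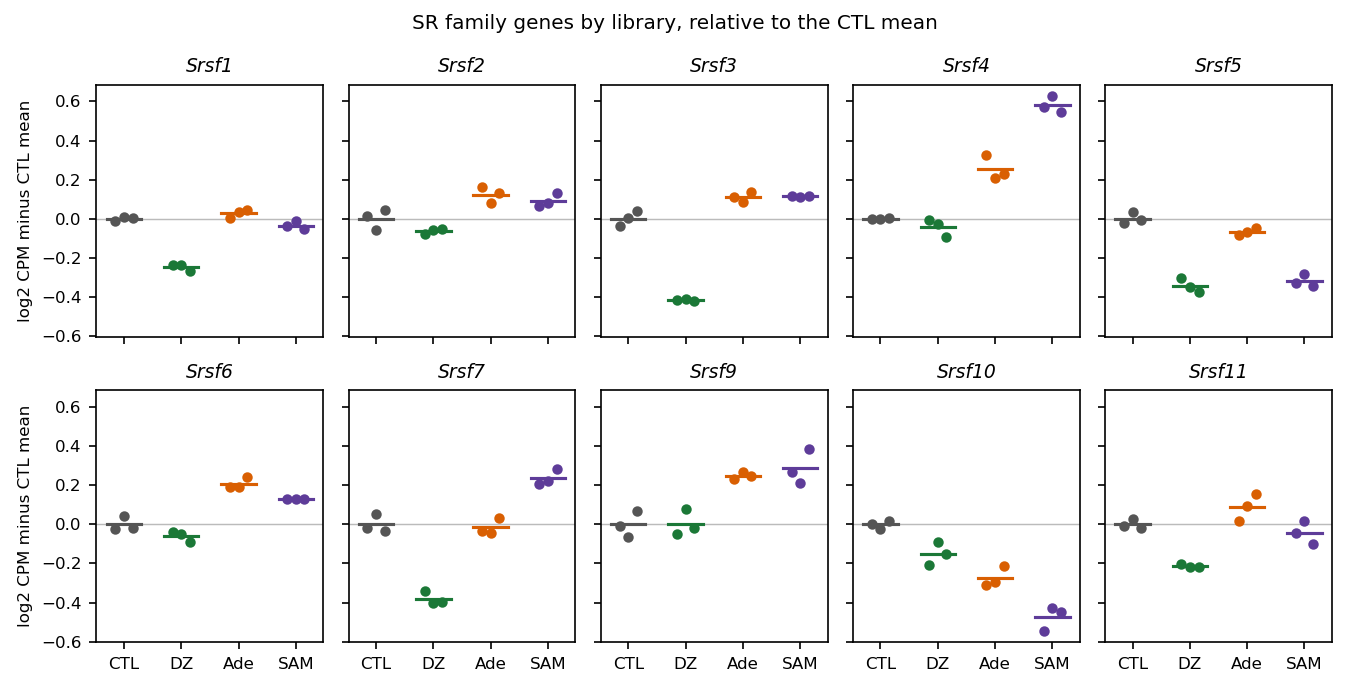
Log2 CPM of the 10 SR family genes in each of the 12 libraries, drawn as the difference from the CTL mean (y axis), with one panel a gene and the 4 groups on the x axis. Points are dishes and lines are means of 3 dishes; the DZ dishes of Srsf3 and Srsf7 lie below all others, the SAM dishes of Srsf4 lie above all others, and Srsf10 declines from CTL to SAM.

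Most of the SR genes called in adenine were higher. Of the 10 genes, 5 were called higher and 1 lower, where 61.6% of all genes were called, 30.6% higher and 31% lower. The dishes did not overlap in 7 of the 10, as in 74.7% of all genes. The count depends on the scaling, with 7 higher and 1 lower with plain read totals or quantile normalization and 3 higher and 2 lower with median centring. The calls over all genes moved the same way. The higher share of them was 49.7% with the authors' scaling, 58.4% with plain read totals and 43% with median centring. The median log2 fold change was 0.10 against -0.0030 for all genes, and the extremes were -0.27 for Srsf10 and 0.25 for Srsf4. Proliferation genes moved with adenine and SAM: 20 of 20 were called in each, 19 of them higher. In DZ 11 of the 20 were called (55%, against 45.9% of all genes), 10 of them higher. Their summed levels were 1121 to 1162 CPM in CTL, 1171 to 1312 CPM in DZ, 2608 to 2696 CPM in adenine and 3177 to 3234 CPM in SAM. Their part in the changes of the SR genes was not tested.

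Srsf4 was the SR gene with the widest range of group means. It measured 5.96, 5.96 and 5.97 in CTL and 6.29, 6.17 and 6.19 in adenine. All adenine dishes were higher, and the log2 fold change of 0.25 ± 0.038 passed the test (adjusted p = 2.37e-05). Srsf6 rose from 7.54, 7.61 and 7.54 to 7.76, 7.76 and 7.81, a log2 fold change of 0.21 ± 0.028 (adjusted p = 6.64e-06). Srsf5 was 8.15, 8.16 and 8.18 in adenine, slightly under CTL in each dish, but its log2 fold change of -0.068 did not pass (adjusted p = 0.0447). With median centring it was called lower (-0.12, adjusted p = 0.00225), and with quantile normalization its sign turned (0.012).

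Srsf9 rose from 5.75, 5.69 and 5.82 in CTL to 5.99, 6.02 and 6.0 in adenine, with a log2 fold change of 0.25 ± 0.049 (adjusted p = 2.73e-04). Transcripts of Srsf9 share 507 bases with Gatc on the opposite strand, which had a log2 fold change of -0.52 in adenine. Srsf1, at 8.34, 8.37 and 8.38, overlapped CTL. Its log2 fold change of 0.028 did not pass (95% interval -0.025 to 0.080), but it was called higher with plain read totals (0.090) and quantile normalization (0.16), and with median centring its sign turned (-0.024).

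Srsf3 and Srsf2 were called higher in adenine by small amounts. Srsf3 measured 8.07, 8.04 and 8.09 in adenine, each above CTL, and its log2 fold change was 0.11 ± 0.026 (adjusted p = 0.00149). Srsf2 measured 7.87, 7.79 and 7.84, with a log2 fold change of 0.12 ± 0.032 (adjusted p = 0.00322). With median centring neither was called, and the call of Srsf2 was also lost without CTL replicate 2, adenine replicate 1 or adenine replicate 3, as was that of Srsf3 without CTL replicate 1. Srsf2 lies opposite Mfsd11 and Mettl23, which share 1119 bases with it in antisense, and Mfsd11 had a log2 fold change of -0.44 in adenine.

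Srsf10 fell in adenine, from 7.32, 7.29 and 7.33 to 7.0, 7.02 and 7.10. No dish overlapped, and the log2 fold change was -0.27 ± 0.039 (adjusted p = 1.47e-05). Srsf7 at 7.42, 7.41 and 7.49 and Srsf11 at 7.97, 8.04 and 8.11 overlapped CTL. Neither passed the test, with adjusted p-values of 0.711 and 0.0365 from limma, although Srsf11 was called higher without adenine replicate 1 and with plain read totals or quantile normalization.

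SAM gave the largest single changes from CTL in the family, although the typical member moved less than the typical gene. Of the 10 genes, 5 were called higher and 2 lower, where 69.3% of all genes were called, 33.7% higher and 35.7% lower. The dishes did not overlap in 8 of the 10, as in 77.6% of all genes. The median log2 fold change was 0.10, against -0.015 for all genes, both with the authors' scaling. Plain read totals moved the median of all genes to 0.11 and raised the members as well, such as Srsf2 from 0.093 to 0.21 and Srsf1 from -0.035 to 0.087. With plain read totals or quantile normalization 7 genes were higher and 2 lower, and with median centring 3 were higher and 2 lower. Over all genes, 8927 of 12591 were called with plain read totals, 5465 of them higher, and 8749 with median centring, 3861 of them higher. The higher share of all calls was 48.5% with the authors' scaling, 61.2% with plain read totals and 44.1% with median centring. For quantile normalization the calls over all genes are not given here. Taken without sign, the log2 changes of the members in SAM had a median of 0.18, against 0.34 for all genes. In adenine these medians were 0.12 and 0.27, and in DZ both were 0.18. Srsf4, with the largest change of a member in SAM, ranked 3830 by size among the 12591 genes.

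Srsf4 rose to 6.53, 6.59 and 6.51 in SAM, above every dish of the other groups. Its log2 fold change was 0.58 ± 0.038, a 1.50-fold level (adjusted p = 1.20e-09), and without SAM replicate 3 it was 0.60. The antisense lncRNA Gm12992, which shares 1451 bases with Srsf4, had a log2 fold change of 0.12 that was not called. It held 2.46 CPM in CTL and 2.70 in SAM, against 62.4 and 93.4 for Srsf4. Another listed gene, A930004J17Rik, overlaps the span of Srsf4 by 4610 bases on the same strand, where strand cannot separate reads. It was not among the sequence matches of the canonical Srsf4 transcript, and its change is not given here. Srsf5 moved the other way, to 7.90, 7.95 and 7.89, with a log2 fold change of -0.32 ± 0.028 (adjusted p = 5.08e-08). Reads of Srsf5 can be shared with the pseudogene Gm12966 (99% identity over 810 bases), which had a log2 fold change of -0.23 in SAM. Srsf6 was 7.69 in each SAM dish and was called higher by 0.13 ± 0.028 (adjusted p = 6.03e-04), a call that median centring removed.

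The log2 ratio of Srsf4 to Srsf5 reads shows the divergence within each library and does not depend on scaling. It was -2.31 to -2.24 in CTL, -1.99 to -1.95 in DZ, -1.99 to -1.86 in adenine and -1.38 to -1.36 in SAM. The mean ratio in SAM was 1.87-fold that of CTL. The ratio of Srsf4 to Srsf10 was 2.08-fold that of CTL in SAM, 1.44-fold in adenine and 1.08-fold in DZ. These pairs were picked after their values were seen, so no test was made.

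**Figure D3:**
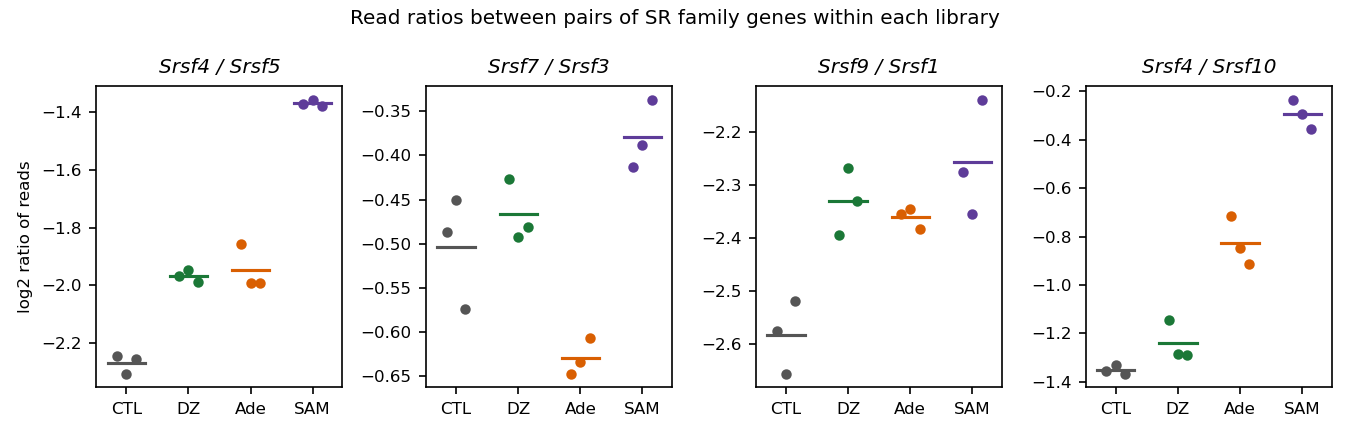
Log2 ratio of reads of 4 pairs of SR family genes within each library (y axis) in the 4 groups (x axis); points are dishes, lines are means of 3 dishes, and each panel has its own scale. The ratio of Srsf4 to Srsf5 is highest in SAM, at -1.38 to -1.36, against -2.31 to -2.24 in CTL.

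Srsf10 reached its lowest values in SAM, 6.77, 6.89 and 6.86. Its log2 fold change was -0.47 ± 0.039, and the level fell by 28.0% (adjusted p = 1.99e-08). The processed pseudogenes Gm5446 and Gm9134, at 98.4% and 97.2% identity to Srsf10, had log2 fold changes of -0.29 and 0.0069 in SAM, neither called. Srsf10 also overlaps Pnrc2 on the opposite strand.

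Srsf7 rose to 7.66, 7.68 and 7.74, above all CTL dishes, with a log2 fold change of 0.24 ± 0.034 (adjusted p = 9.57e-06). Srsf3, its relative, was 8.07 in each SAM dish and higher by 0.11 ± 0.026 (adjusted p = 9.68e-04), a call that median centring removed. The antisense Trp53cor1 had a log2 fold change of -2.30 in SAM. It held 5.52 CPM in CTL and 1.08 in SAM, against 249 and 269 for Srsf3. The Srsf3 pseudogenes Srsf3-ps and Gm9761 had log2 fold changes of 0.11 (not called) and 0.29.

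Srsf9 measured 6.02, 5.97 and 6.14 in SAM, a log2 fold change of 0.29 ± 0.049 (adjusted p = 5.49e-05) that was 0.24 without SAM replicate 3. Gatc, which overlaps it, had a log2 fold change of -0.66. Srsf2, at 7.77, 7.79 and 7.84, lay above the CTL dishes but was not called (log2 fold change 0.093, adjusted p = 0.0166). It was called higher with plain read totals (0.21, adjusted p = 2.48e-05) and quantile normalization (0.21), and without CTL replicate 3. Srsf1 at 8.30, 8.32 and 8.28 and Srsf11 at 7.91, 7.97 and 7.85 were not called, at log2 fold changes of -0.035 and -0.042. The sign of both turned with plain read totals, to 0.087 and 0.080, and with quantile normalization. Srsf1 was then called higher, with adjusted p-values of 0.00402 and 1.02e-04 from limma, and Srsf11 was not.

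**Figure D4:**
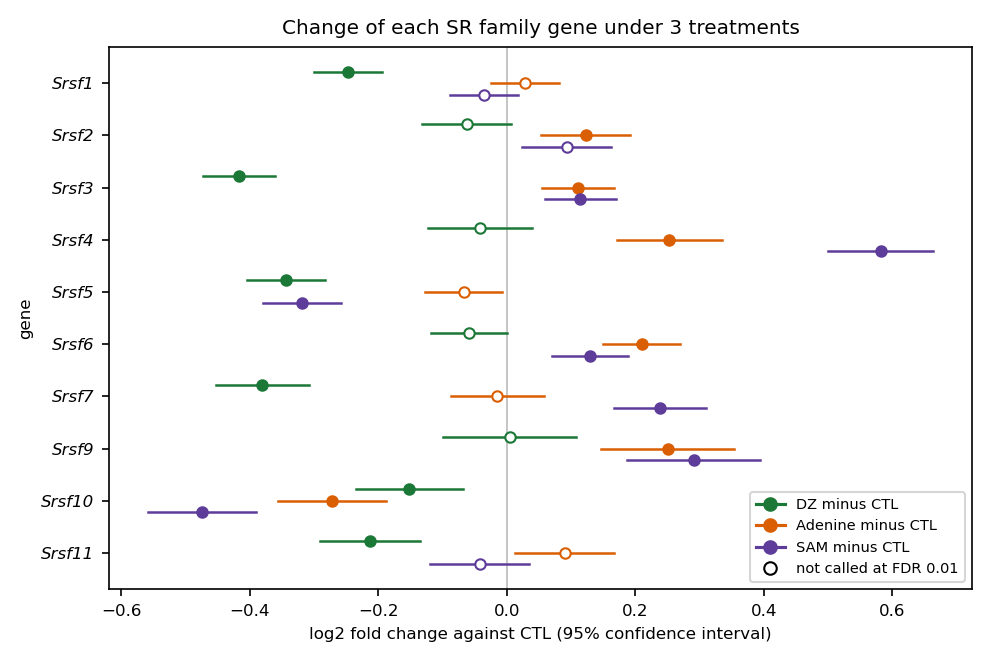
Log2 fold change of each SR family gene against CTL in DZ, adenine and SAM (x axis, lines give the 95% confidence interval, genes on the y axis). Filled points passed an adjusted p of 0.01 and open points did not; the values run from -0.47 for Srsf10 to 0.58 for Srsf4, both in SAM.

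The difference between SAM and adenine, which were given at the same dose, was tested directly. Of the 10 genes, 2 were higher and 3 lower in SAM, where 42.7% of all genes were called, 20.8% higher and 22% lower. The dishes did not overlap in 7 of the 10, as in 61.3% of all genes, and the median log2 difference was -0.047 against 0.00012 for all genes. Srsf4 (0.33 ± 0.038, adjusted p = 4.03e-06) and Srsf7 (0.25 ± 0.034, adjusted p = 1.56e-05) were higher in SAM on the log2 scale. Lower in SAM were Srsf5 (-0.25 ± 0.028, adjusted p = 3.17e-06) and Srsf10 (-0.20 ± 0.039, adjusted p = 4.73e-04). Srsf11 was lower as well (-0.13 ± 0.036, adjusted p = 0.00604), but this call was lost without adenine replicate 2 (-0.13), adenine replicate 3 (-0.098), SAM replicate 1 (-0.13) or SAM replicate 3 (-0.10). It was also lost with plain read totals (-0.072), median centring, quantile normalization, no variance trend and a model of the compared groups only. Srsf3 did not differ past the test, with a 95% interval of -0.052 to 0.060.

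DZ was given at another dose than adenine and SAM, so their contrasts with DZ set agents side by side at different concentrations. Against adenine, 9 of the 10 genes were lower in DZ, where 64.3% of all genes were called, 32.1% higher and 32.2% lower, with a median of -0.28. The dishes did not overlap in 10 of the 10, as in 77.6% of all genes. Srsf3 had the largest difference, -0.53 ± 0.026 on the log2 scale. Srsf10 was the exception, higher in DZ in every dish by 0.12 ± 0.039 but not past the threshold (adjusted p = 0.0120). It was called with median centring, robust empirical Bayes or the replicate block, and without DZ replicate 1 or adenine replicate 3. Against SAM, 8 genes were lower and 1, Srsf10 (0.32 ± 0.039), was higher in DZ, where 69% of all genes were called, 35% higher and 34% lower, and the median was -0.20. The dishes did not overlap in 9 of the 10, as in 77.6% of all genes. Srsf4 and Srsf7 had the largest differences, -0.62 each, and Srsf5, low in both groups, differed by -0.025 (95% interval -0.086 to 0.035). With plain read totals or quantile normalization Srsf5 was called lower in DZ than in SAM, at -0.12 and -0.13.

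Patterns over the 12 libraries were compared by the root mean square difference of log2 values after each gene was centred on its mean. Srsf1 and Srsf11 were each other's nearest family member at 0.039, and Srsf11 ranked Srsf1 second of all other genes. Srsf2 and Srsf6 were also each other's nearest, at 0.058, and so were Srsf3 and Srsf7, at 0.096. Srsf4 and Srsf10 had no close relative in the family, with nearest distances of 0.15 and 0.16. Over all genes, the nearest to Srsf4 were Gm4828, Bin1 and Rhbdf1 (0.046 to 0.051), to Srsf7 Bhlhb9, Zfp821 and Hnrnpa2b1 (0.046 to 0.053), and to Srsf3 Lix1l, Rp2 and Arhgef25 (0.045 to 0.052). Hnrnpa2b1 encodes an hnRNP protein that binds pre-mRNA.

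The upstream sequence of Srsf4, the gene with the widest range, and of Srsf1, which was called in DZ but not in adenine or SAM, was taken from the RefSeq promoter table and placed on GRCm39 by exact match. The stretch printed lies directly before the annotated start of each gene and outside exons of protein-coding genes, although an exon of the antisense lncRNA Gm11508 covers that of Srsf1. It is written 5′ to 3′ on the plus strand, with capitals at motif matches. For Srsf4 (chromosome 4, gene from 131600816 to 131630471, plus strand) it spans chr4:131600698-131600815, and for Srsf1 (chromosome 11, gene from 87938129 to 87944581, plus strand) it spans chr11:87937949-87938128.
Srsf4: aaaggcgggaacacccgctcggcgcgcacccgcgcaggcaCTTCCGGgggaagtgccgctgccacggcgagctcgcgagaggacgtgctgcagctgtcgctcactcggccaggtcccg
Srsf1: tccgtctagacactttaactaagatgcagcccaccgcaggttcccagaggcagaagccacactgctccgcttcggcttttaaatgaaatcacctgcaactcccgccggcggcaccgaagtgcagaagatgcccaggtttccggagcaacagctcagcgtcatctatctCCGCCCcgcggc
The motifs searched on both strands were the E-box CACGTG bound by the clock factors CLOCK and BMAL1, the CRE TGACGTCA, the CCAAT box CCAAT, the GC box GGGCGG, the ETS site CCGGAAG and the TATA box TATAAA. The Srsf4 stretch held 1 ETS match and the Srsf1 stretch 1 GC box match, both on the opposite strand. In the full 250 upstream bases, 9 of the 10 SR genes held a GC box, 4 an ETS site, 3 a CCAAT box, 2 a TATA box, and 0 an E-box or CRE. These counts used the first promoter listed for each gene without removing exons, which can differ from the stretches printed. Of 27025 promoters in the same table, 32.9% held a GC box, 7.05% an ETS site, 34.5% a CCAAT box, 13% a TATA box, 6.05% an E-box and 1.62% a CRE. A match describes letters only.

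The kinases that phosphorylate SR proteins and their importer Tnpo3 were listed for 9 of 10 names (not Srpk3). Of these, 22.2% were called in DZ, 44.4% in adenine and 66.7% in SAM, against 45.9%, 61.6% and 69.3% of all genes. In DZ 1 was higher (Srpk1, log2 fold change 0.19) and 1 lower (Clk3, -0.31). In adenine 4 were lower, among them Clk4 (-0.32), Clk3 (-0.24) and Srpk1 (-0.19). In SAM 4 were higher, Srpk1 at 0.28 and Clk1 at 0.25 among them, and 2 lower, including Srpk2 at -0.18. Between SAM and adenine, 5 of the 9 were called (55.6%, against 42.7% of all genes), and these 5 were higher in SAM, as 20.8% of all genes were, with Srpk1 at 0.46, Clk3 at 0.41 and Clk1 at 0.27.

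Among 24 SR-related proteins, which carry an arginine-serine region but are outside the family, 12 were lower and 1 higher in DZ, so that 54.2% were called where 45.9% of all genes were. Bclaf1 (-0.64), Luc7l3 (-0.48) and Tra2a (-0.42) had the smallest adjusted p-values there. In adenine and in SAM, 7 were higher and 7 lower each, and this share of 58.3% was below the 61.6% and 69.3% of all genes called. Arglu1, a splicing modulator rich in arginine and glutamate, had the largest of these changes, -0.39 in adenine and -1.06 in SAM. Srek1 (0.49) and Rnps1 (0.30), a component deposited at exon junctions, were higher in SAM.

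Of 28 hnRNP genes, whose products often oppose SR proteins in splicing, 8 were higher and 7 lower in DZ, 8 and 6 in adenine, and 11 and 6 in SAM. The shares called, 53.6%, 50% and 60.7%, stood against 45.9%, 61.6% and 69.3% of all genes. Rbmx was lower in DZ (-0.94), adenine (-0.52) and SAM (-0.99). Of 17 genes of the U1 and U2 particles and U2AF, 8 were higher and 1 lower in DZ (52.9% called), with a median of 0.12, 6 and 4 in adenine (58.8%), with a median of 0.039, and 9 and 4 in SAM (76.5%), with a median of 0.18. Of 7 Sm genes, 2 were called in DZ (28.6%), 1 in adenine (14.3%) and 3 in SAM (42.9%), each below the share of all genes. Of 15 NMD genes, 4 were higher and 1 lower in DZ, 8 and 3 in adenine, and 7 and 3 in SAM, which is 33.3%, 73.3% and 66.7% called, with medians of 0.10, 0.11 and 0.13. The medians of all genes were -0.0057, -0.0030 and -0.015 in the same comparisons.

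**Figure D5:**
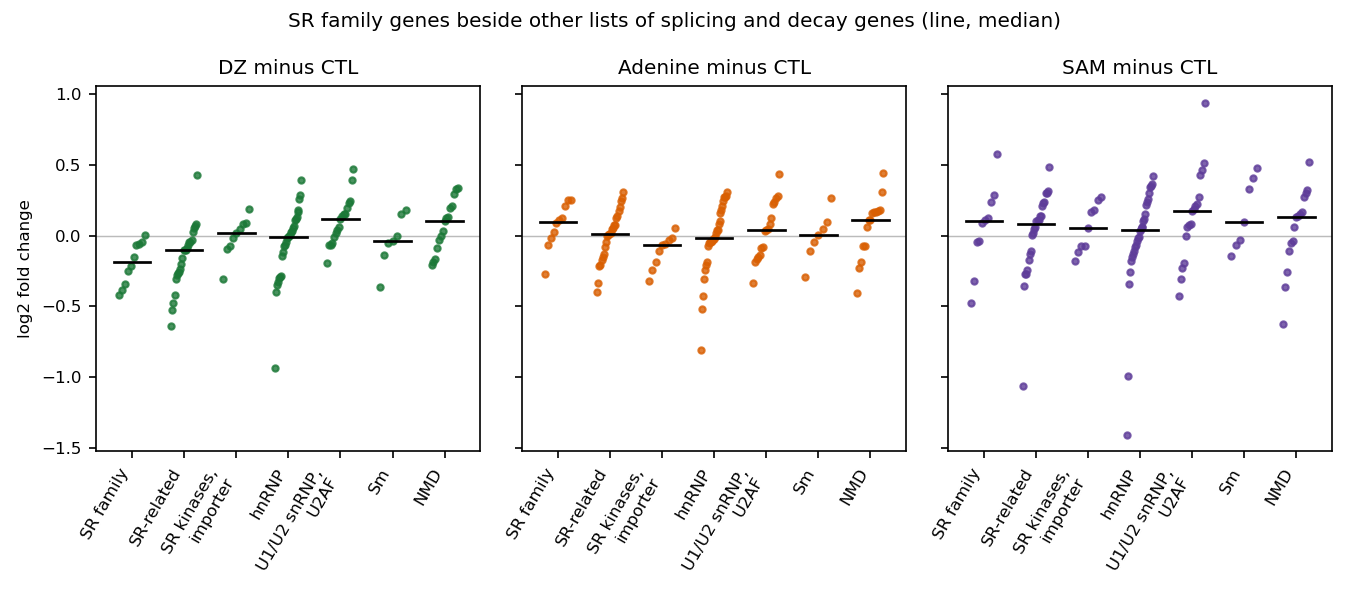
Log2 fold change against CTL (y axis) of the genes in the SR family and in 6 other lists (x axis) in DZ, adenine and SAM; points are genes in ascending order and the line is the median. The SR family median is -0.18 in DZ and 0.10 in both adenine and SAM.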

How the data were processed

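RNA of 12 dishes was sequenced as stranded polyadenylated libraries. Per the methods of the study, Trimmomatic was used for trimming, HISAT2 for alignment to GRCm39 with GENCODE vM27 and StringTie for quantification, and genes under 1 CPM in any library were dropped. The deposited values are log2 CPM of normalized library size from edgeR, which sets every value relative to the authors' scaling factors (0.962 to 1.05). How those factors were made is not given in the sources used here.

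The deposited log2 values were tested with limma 3.58.1 in R 4.3.3 (eBayes with a variance trend, 1 model of 12 libraries, FDR of 0.01). Whole reads were recovered by removing the prior count of 2, and 100% of values lay within 0.01 of a whole read. Voom on these reads called the same numbers of members. Simulated data with log2 changes of 0.5 and 1 gave recovery of 77 to 81% and 96 to 98%, with 0 to 1.13% false calls. Only 200 genes were changed per simulated treatment, up and down in equal number, far fewer than were called in the data. Changes below 0.5, the size of most member changes, were not simulated, so these rates do not cover them.

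Positions, transcripts and lengths come from GENCODE vM39. Shared sequence was searched with BLAST 2.17.0 (at least 100 bases and 95% identity). Same-numbered libraries did not deviate together. The members and lists were chosen with earlier results of these data known. Named genes are all members in every comparison, up to 3 genes per other list by adjusted p, the 3 nearest genes of the 3 members with the widest range, and sequence matches of members; overlapping genes and members picked for ratios were added after seeing values.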

Additional observations from a re-analysis of the deposited data

How the results depend on the processing

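Depth did not limit the members, which had at least 2373 reads in every library, but 3 dishes a group and 1 cell line do, and an exact permutation test of 3 against 3 could not go below 0.10. Requiring an absolute log2 fold change of 0.5 left 0, 0 and 1 members called in DZ, adenine and SAM against CTL, 0 in SAM against adenine, 1 in DZ against adenine and 3 in DZ against SAM. For scale, the median absolute log2 fold change of all called genes was 0.33, 0.44, 0.51, 0.31, 0.44 and 0.50 in these comparisons. Leaving out each library gave 5 to 6, 5 to 6, 7 to 8, 4 to 5, 9 to 10 and 9 called members in the same order. The shares of all genes called under these settings are not given here, so the counts describe the members only. The summed level in CTL became 1898 CPM with plain read totals, 2007 with median centring and 1903 with quantile normalization. In DZ it became 1651, 1699 and 1651 CPM, and in SAM 2074 with plain read totals and 2074 with quantile normalization.

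The signs that turned were of changes not called with the authors' scaling. With plain read totals Srsf1 and Srsf11 in SAM became 0.087 and 0.080, Srsf7 in adenine 0.047 and Srsf2 in SAM against adenine 0.030. With quantile normalization the same 4 became 0.14, 0.085, 0.038 and 0.041, Srsf5 in adenine became 0.012 and Srsf9 in DZ -0.013. Of these turned values, Srsf1 in SAM was called higher with both scalings (adjusted p = 0.00402 and 1.02e-04 from limma) and no other was called. With median centring Srsf1 in adenine became -0.024 and Srsf9 in DZ -0.010. Leaving out a library turned Srsf7 in adenine (-0.039 to 0.012), Srsf9 in DZ (-0.032 to 0.039), Srsf3 in SAM against adenine (-0.0092 to 0.017) and Srsf9 in SAM against adenine (-0.0081 to 0.079). The cause of these turns was not tested. Plain read totals moved the higher share of all calls in SAM from 48.5 to 61.2%. With the replicate number as a block Srsf10 was called higher in DZ than in adenine (0.12, adjusted p = 0.00636), and no other call changed. Same-numbered libraries had r between -0.142 and 0.181, and 4 of 12 correlated best with their own number.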
